A study of Mus musculus with 44 samples.

Results

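Two-cell embryos of a wild-type cross came from 2 matings, and the comparison set the embryos of mating 1 against those of mating 2. Embryos were assigned by the mating named in their labels. Of the 44 embryos in the series, 14 belonged to this cross, with 10 embryos from mating 1 (WT-a to WT-j) and 4 from mating 2 (WT-k to WT-n). The labels call the females ctrl and the males WT, and the study describes both as Dppa2/4+/+ mice and its wild-type crosses as C57Bl/6. Whether the ctrl females carried unrecombined conditional alleles is not given in the sources used here. No agent was given, embryos were collected at E1.5 from natural matings, and the age of the parents is not given. The zona pellucida was removed with Tyrode's solution before each embryo was lysed alone and its mRNA captured by Smart-seq2. The other embryos of the series came from females whose oocytes lacked Dppa2/4, since Zp3-Cre deletes the conditional alleles in growing oocytes. Both wild-type groups had the same genotype and stage, so that the comparison shows how far 2 control litters stood apart. Each group came from a single mating, here called a litter, and the litter, its parents and any handling of it cannot be told apart.

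The two-cell stage is the point at which the mouse embryo passes from transcripts stored in the oocyte to transcripts of its own genome. Maternal transcripts are degraded in a programmed way, while the major wave of zygotic genome activation switches on genes for ribosome biogenesis, translation and protein turnover together with a transient two-cell programme. The embryo divides within the oviduct, whose epithelium secretes glycoproteins around it and rests on connective tissue and smooth muscle.

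Total reads ranged from 637704 to 3163026 in mating 1 and from 847972 to 2987324 in mating 2, a difference of -0.0022 in mean log2 total reads (two-sided exact permutation test, p = 0.993, n = 10 and 4). Between 9169 and 14199 genes had at least 1 read. Both litters held an embryo of low capture. WT-j (mating 1) had reads on 9403 genes and WT-k (mating 2) on 9169, whereas the other 12 embryos had reads on 10591 to 14199 genes. The mean number of genes was 11945 ± 1268 in mating 1 and 12168 ± 2286 in mating 2 (SD; two-sided exact permutation test, p = 0.837, n = 10 and 4), and 12228 ± 955 and 13168 ± 1358 without WT-j and WT-k (p = 0.209 by the same exact test, n = 9 and 3). Over the 9824 genes tested below, WT-k had a median Pearson's r of 0.590 with the other 13 embryos and WT-j of 0.755, while the remaining embryos had medians between 0.756 and 0.812. These correlations are across genes within pairs of embryos and share depth and base composition, so that they describe the embryos only.

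**Figure D1:**
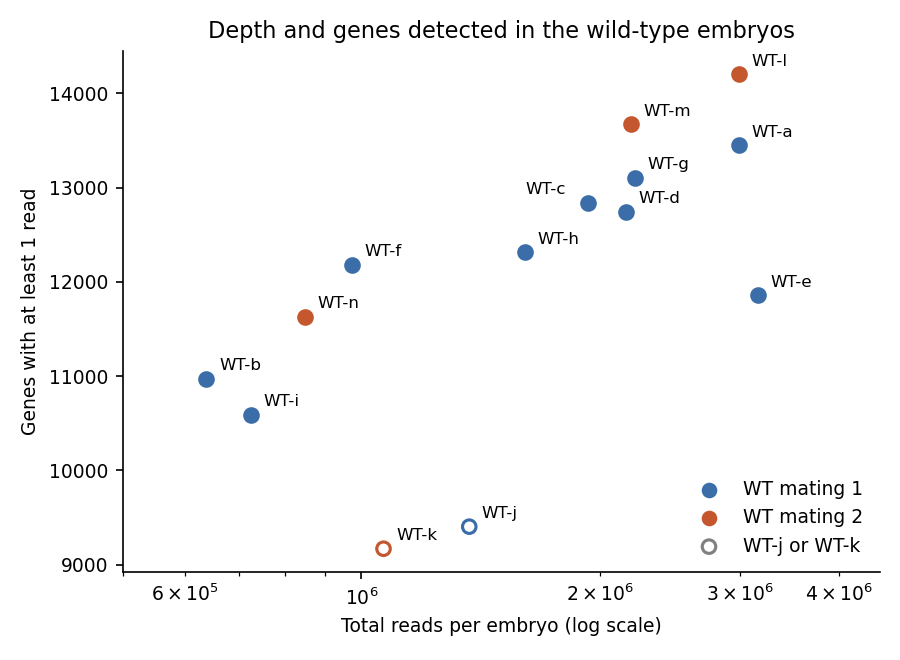
Total reads per embryo (x axis, log scale) and number of genes with at least 1 read (y axis) for the 10 embryos of mating 1 and the 4 of mating 2, each point an embryo. The open points WT-j and WT-k lie below all other embryos, at 9403 and 9169 genes, although embryos with fewer total reads had more genes.

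Few genes passed between the 2 litters with all 14 embryos, and most of these were higher in mating 2, but the number and the split changed with the model. Decorin (Dcn), selenoprotein P (Selenop), oviductal glycoprotein 1 (Ovgp1) and thymosin beta 4 (Tmsb4x) had 0 to 156 reads over the whole of mating 1 and 887 to 2590 over mating 2, and the levels of Smc4 and Zfp977 were lower in mating 2. Among 9824 genes with a mean of at least 1 in deposited log2 RPM, the log2 of reads scaled to each embryo's total (RPM), 17 passed an adjusted p of 0.05 by limma with all 14 embryos (0.173% of the genes tested). Of these, 15 were higher in mating 2 (0.153%) and 2 were lower. Of the 15, 9 had a mean under 1 in mating 1 in the deposited values, which lie below the floored values printed here where a gene had no reads, and passed the filter on low values only through mating 2, so that they had to differ: Dcn, Selenop, Ccdc152, Tmsb4x, Calb1, Hspa13, Gsto1, Itm2b and Cd24a. Their calls and adjusted p-values, with all alternatives, are given as a description. The other 8 of the 17 were Ovgp1, Sqstm1, mt-Co2, Kit, Laptm4b and Siah2, which were higher, and Smc4 and Zfp977. With the 12 embryos left after WT-j and WT-k were taken out, 6 genes passed (0.0611%), all higher in mating 2 (0.0611%), and all 6 were among the 17: Dcn, Selenop, Ccdc152, Ovgp1, Tmsb4x and mt-Co2. The other 11 kept their direction, with adjusted p-values between 0.108 and 0.219 by limma, and the difference was smaller without WT-j and WT-k for 16 of the 17 genes. The median difference over all genes tested, mating 2 minus mating 1, was -0.13 on the log2 scale with 14 embryos and 0.02 with 12. The ranges of the 2 litters did not overlap for 13 of the 17 genes, against 0.753% of all genes tested that lay wholly higher in mating 2 and 0.366% that lay wholly lower. These ranges come from the same contrast as the calls and add no support to them. Leaving out a single embryo gave 6 genes without WT-k, 7 without WT-e, 8 without WT-d, WT-i or WT-j, 11 without WT-c or WT-f, 45 without WT-m (17 higher and 28 lower in mating 2) and 60 without WT-n (38 and 22), and with 12 embryos leaving out WT-n as well gave 11. With 14 embryos, 117 genes passed when the number of genes detected was a covariate (38 higher and 79 lower) and 203 when all 44 embryos shared a model (106 and 97). The embryos of a litter share their parents, and p-values measure only the spread between embryos of these litters.

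**Figure D2:**
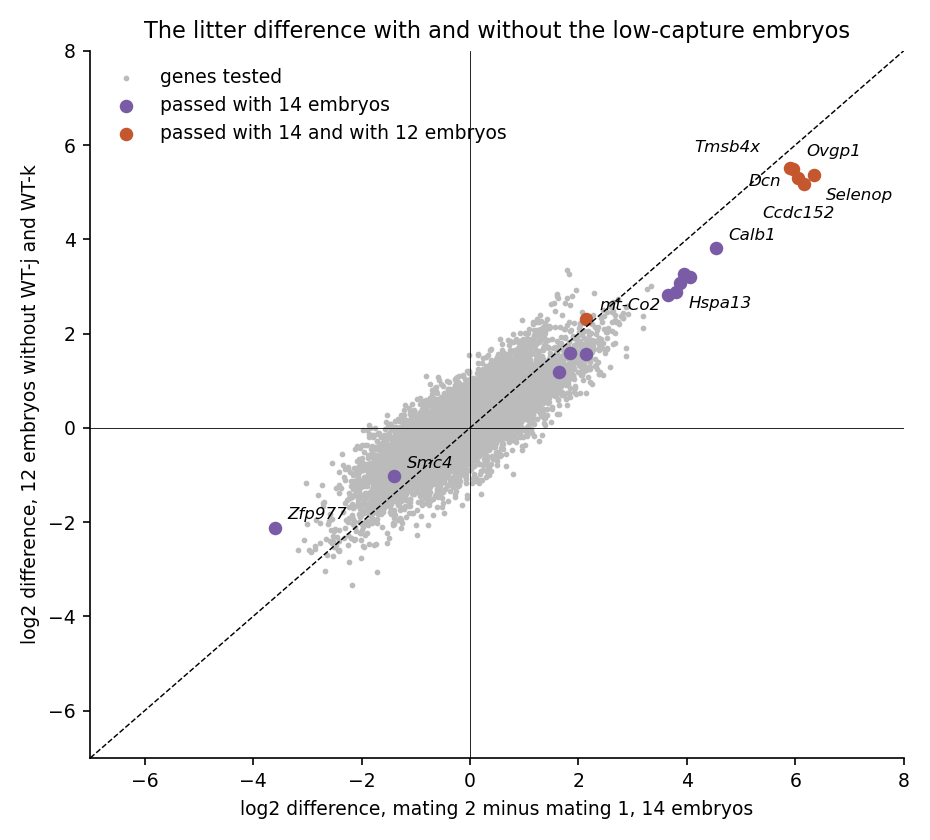
Log2 difference (mating 2 minus mating 1) of each of 9824 genes with 14 embryos (x axis) and with 12 embryos after WT-j and WT-k were left out (y axis), with the line of equal values dashed. The 6 genes that passed with and without these embryos are in orange and the 11 that passed only with 14 embryos in purple; Dcn, Selenop, Ccdc152, Ovgp1 and Tmsb4x lie apart from all other genes, at 5.90 to 6.34 with 14 embryos.

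The largest differences were those of Selenop, Ccdc152, Dcn, Ovgp1 and Tmsb4x. Dcn, a small proteoglycan that binds collagen fibrils, had 487, 236, 134 and 30 reads in WT-k, WT-l, WT-m and WT-n and 0 reads in each of the 10 embryos of mating 1. It also had 0 reads in all 30 embryos of the other crosses. Selenop, a secreted carrier of selenium, had 945, 433, 145 and 17 reads in the same order and 0 in every mating 1 embryo. Ovgp1, the glycoprotein that the oviduct epithelium secretes onto the zona pellucida and the early embryo, had 1597, 630, 322 and 41 reads. In mating 1 it had a lowest value of 0, a median of 2.5 and a highest value of 84 reads, the highest being WT-j and the next WT-a at 48. Tmsb4x, an actin monomer-binding protein that is abundant in somatic cells, had 262, 495, 350 and 28 reads in mating 2 and between 0 and 14 (median 1) in mating 1. The groups did not overlap for Dcn, Selenop and Tmsb4x, and for Ovgp1 WT-j lay above WT-n. In each of these genes WT-n had the fewest reads of mating 2.

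Relative to the limit that 3 reads over the whole of mating 1 would give, Dcn was at least 741-fold and Selenop at least 1286-fold higher in the pooled reads of mating 2. WT-k held 487 of 887 and 945 of 1540 of these reads, and without it the limits were 393-fold and 585-fold. Their fitted differences, 6.06 ± 0.66 (SE; limma, adjusted p = 1.1e-05) and 6.34 ± 0.74 (SE; limma, adjusted p = 2.4e-05) on the log2 scale with 14 embryos, depend on the floor given to genes without reads and are no bound. Neither these p-values nor that of Tmsb4x support a difference, since the filter let these genes in through mating 2 alone. Ovgp1 rose from a mean log2 RPM of 1.80 ± 1.87 (SD, n = 10) to 7.77 ± 2.06 (SD, n = 4), a difference of 5.96 ± 0.97 (SE; limma, adjusted p = 0.0031), or 41.6-fold in pooled reads. This fold was 18.8 without WT-k, 83.2 without WT-j and 37.5 without both. Tmsb4x rose from 1.02 ± 0.75 (SD, n = 10) to 6.92 ± 1.28 (SD, n = 4), a difference of 5.90 ± 0.71 (SE; limma, adjusted p = 2.4e-05), or 81.2-fold in pooled reads. Without WT-j and WT-k, Ovgp1 differed by 5.50 (limma, adjusted p = 0.000798), but its mean deposited value in mating 1 was then 0.86, under the filter of 1, so that this p is a description too, and the fitted differences of Dcn, Selenop and Tmsb4x were 5.30, 5.35 and 5.50. In these tubes, more cells of a kind and more RNA per cell cannot be told apart.

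Ccdc152, a coiled-coil protein gene, had a fitted difference of 6.16 ± 0.77 (SE; limma, adjusted p = 4.2e-05), but entered through mating 2 alone and is not a separate observation. In the GENCODE annotation of GRCm38 it lies on chromosome 15 from 3280070 to 3303526 on the reverse strand, and shares 439 bp with the end of Selenop, which lies on the forward strand from 3268547 to 3280508. Reads were counted without regard to strand, and Ccdc152 had 433, 145 and 17 reads in WT-l, WT-m and WT-n, the same numbers as Selenop, and 920 in WT-k. Its reads in mating 2 cannot be told apart from those of Selenop. Ovgp1 in turn shares 10890 bp with Gm42890, to which 231 reads of mating 2 were given against 2590 for Ovgp1. In WT-c, the only mating 1 embryo with Ccdc152 reads, it had 9 while Selenop had 0.

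**Figure D3:**
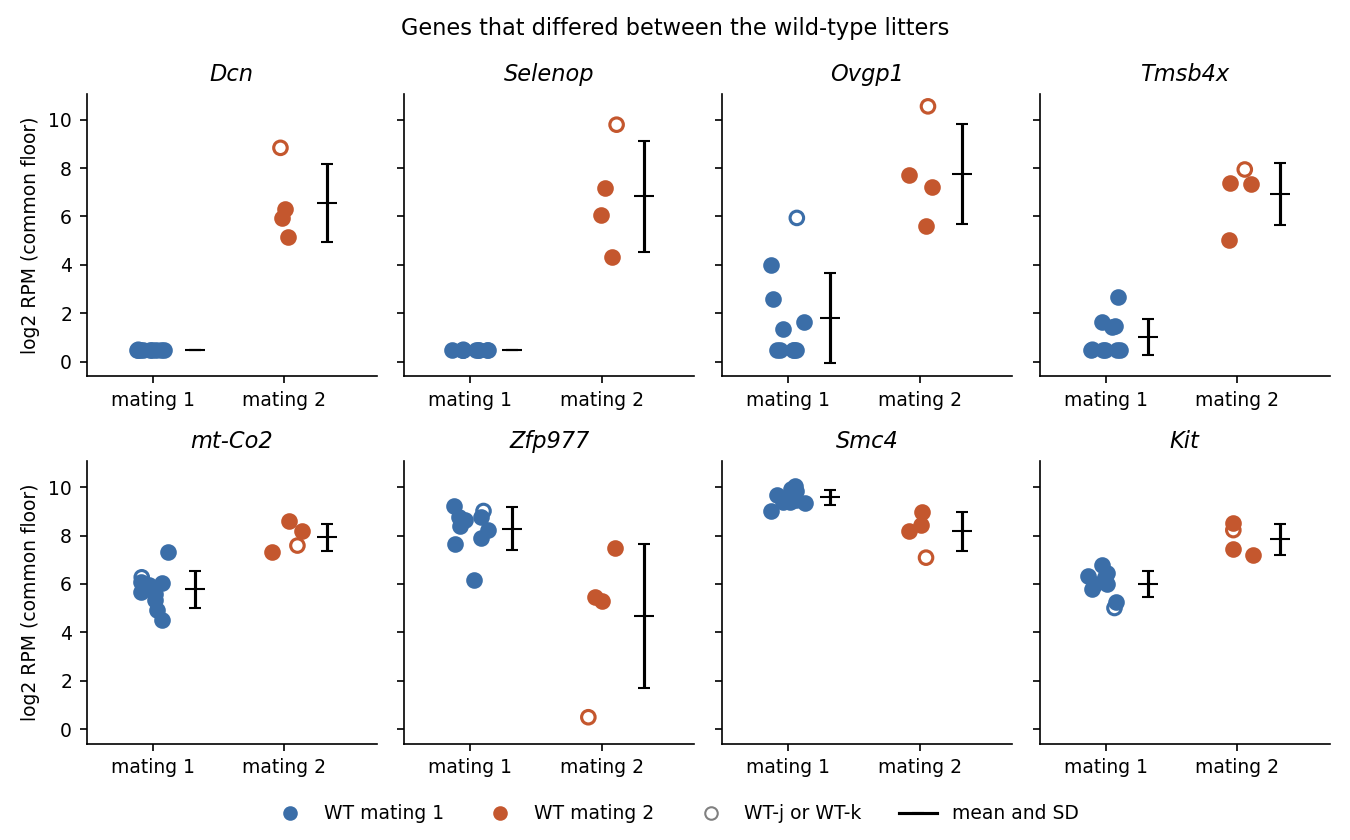
Log2 RPM with a common floor (y axis) of 8 genes that passed with 14 embryos, for each embryo of mating 1 and mating 2 (points; open points are WT-j and WT-k), with the litter mean and SD beside them. Dcn, Selenop, Ovgp1 and Tmsb4x sit at or near the floor of 0.50 in most mating 1 embryos, and WT-k lies highest in mating 2 for these 4 genes and lowest for Zfp977 and Smc4.

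A set of genes had reads in every embryo of mating 2 and none in mating 1. They were picked by these values, which are given as a description with no test. Of 20256 genes with a read in any wild-type embryo, 29 had at least 1 read in each of the 4 mating 2 embryos and 0 in each of the 10 mating 1 embryos (0.143%), and 28 of them are protein-coding. With at least 3 reads in each mating 2 embryo, 11 genes remained (0.0543%), among them Selenop, Dcn, Lum, Col1a2, Sparcl1, Mgp, Gstm1, Tmem176b, Gas1 and C1qc. No gene had the opposite pattern in all 14 embryos, a pattern that also asks for reads in more embryos. Without WT-j and WT-k, 48 genes had reads in all 3 mating 2 embryos and none in 9 mating 1 embryos, and 5 the opposite. Of the 29 genes, 14 also had 0 reads in all 30 embryos of the other crosses, and 8 of the 11.

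Several members with more reads encode proteins of the extracellular matrix, among others that do not, such as Selenop, Tceal9 and Mgst1. The genes named here were chosen after their values were seen. Lum, the proteoglycan lumican, had 66, 186, 113 and 3 reads in WT-k, WT-l, WT-m and WT-n. Col1a2, a chain of type I collagen, had 90, 88, 91 and 5, and Col3a1, type III collagen, had 19, 62, 30 and 1. Mgp, the matrix Gla protein, had 76, 49, 35 and 7 reads, and Sparcl1, a secreted matrix glycoprotein, had 66, 82, 44 and 6. All of these had 0 reads in the 40 embryos outside mating 2. Other members were Acta2 (7, 22, 12 and 1 reads) and Cald1 (83, 3, 19 and 1), which encode contractile proteins of smooth muscle, C1qc (6, 18, 3 and 3), a complement subunit made by macrophages, and the glutathione transferase genes Gstm1 (24, 29, 22 and 9) and Mgst1 (68, 28, 22 and 1). Together the 29 genes held 2244, 1516, 835 and 119 reads, which is 0.289%, 0.0639%, 0.0482% and 0.0180% of the reads on genes in WT-k, WT-l, WT-m and WT-n. Their summed level was 2105 RPM in the low-capture embryo WT-k and 507, 382 and 140 RPM in WT-l, WT-m and WT-n. The ratio between members was not the same in all embryos. Dcn had 51.5, 54.5, 92.4 and 176 reads per 100 reads of Selenop in the same order. Only 2 of the 29 genes, Dcn and Selenop, passed the filter on low values.

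**Figure D4:**
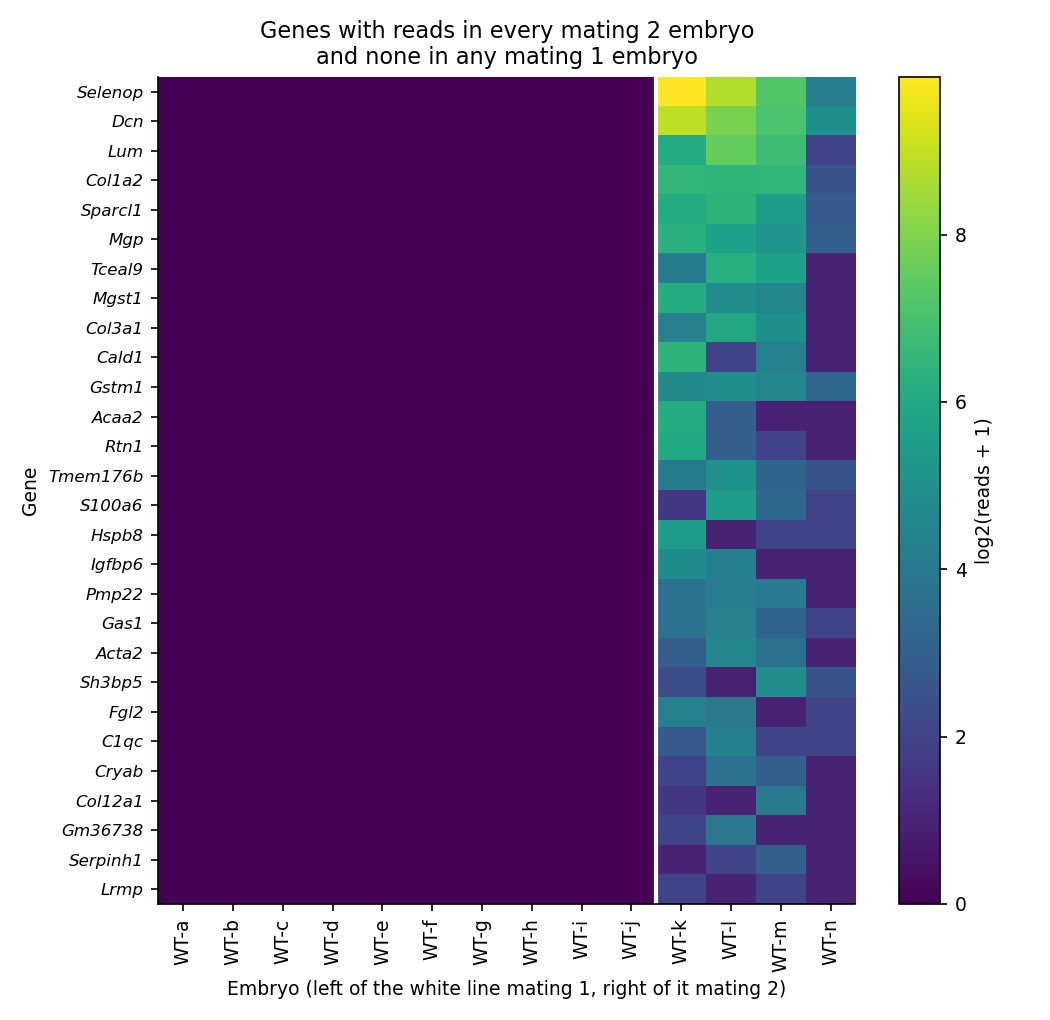
Reads on a log2(reads + 1) scale (colour) of 28 of the 29 genes (rows) with at least 1 read in every mating 2 embryo and none in any mating 1 embryo, across the 14 wild-type embryos (columns). The 10 columns of mating 1 are at 0 by the way the genes were chosen, and in mating 2 the reads of all 29 sum to between 2244 in WT-k and 119 in WT-n.

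Marker lists of other cells were checked in full. Of 11 oviduct markers, 9 had a read in a wild-type embryo. Their summed level was between 0 and 76.8 RPM (median 7.46) in mating 1 and between 53.1 and 1562 RPM (median 209) in mating 2. Without Ovgp1 the other 10 summed to 0 to 15.4 RPM in mating 1 and 4.72 to 63.8 RPM in mating 2. Wt1, a transcription factor of the mesothelium and reproductive tract stroma, had 25, 82, 13 and 0 reads in mating 2, and 21 in WT-j alone in mating 1. Pax8 and Pgr, a transcription factor of secretory epithelium and the progesterone receptor, had 13 and 20 reads in WT-k, 3 and 4 in WT-l, and 0 in all other wild-type embryos. Foxj1, the regulator of ciliated cells, had 1 read in WT-k, 1 in WT-m and 5 in WT-g, and Krt7 1 read in WT-k. Krt19 had 1 read in WT-l, 5 in WT-m and 0 in mating 1. Tubb4a and Cldn4 were at 0 in all 14. Myh11, a smooth muscle myosin of the same list, had 1, 19, 5 and 3 reads in WT-k, WT-l, WT-m and WT-n and between 0 and 17 in mating 1, a difference of -0.07 with 14 embryos (limma, adjusted p = 0.973), and was the only list member tested besides Ovgp1. Markers of other sources were read in the same way. Of 15 granulosa and cumulus markers, Amh, Foxl2, Fshr, Inha, Inhba, Nr5a1 and Lhcgr had no read, and the list summed to 11.7 to 79.1 RPM in mating 1 and 23.4 to 67.2 RPM in mating 2, most of it from Amhr2. Cyp19a1 reached 39 reads in WT-g and 7 in WT-k, and Star had 39 reads in WT-h, 17 in WT-l and 16 in WT-m. Ptx3, Tnfaip6 and Vcan had 7, 6 and 3 reads in WT-m, and in mating 1 only Tnfaip6 was read, with 1 in WT-b and 1 in WT-h. Has2 had 13 reads in WT-d and 2 in WT-j, Cyp11a1 had 1 in WT-e, and neither was read in mating 2. Of 12 sperm markers, Prm2, Tnp1, Tnp2, Odf1, Akap4, Smcp and Acr had no read, and the sum was 29.7 to 52.4 RPM in mating 1 and 43.4 to 105 RPM in mating 2, nearly all from Odf2 and Ldhc. The 9 blood markers summed to at most 6.96 RPM in mating 1 and 5.90 RPM in mating 2. Among the leukocyte genes of this list, Ptprc had no read. Lyz2 had 0, 1, 7 and 3 reads in WT-k, WT-l, WT-m and WT-n, and 3 in WT-c alone in mating 1. Cd52 had up to 15 reads in mating 1 and up to 3 in mating 2. The 12 markers of later embryos summed to 14.6 to 273 RPM (median 177) in mating 1 and 147 to 206 RPM (median 168) in mating 2, with up to 177 reads of Gata4, 230 of Cldn6 and 180 of Dab2. Cdx2 had no read, and Krt8 and Krt18 had 0 reads in mating 1 and up to 11 and 12 in mating 2. The part of cells of the oviduct, or of any other source, in the differences between the litters was not tested.

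Further genes with higher values in mating 2 were transcripts of low level in mating 1. All but Sqstm1 entered through mating 2 alone. Calb1, a calcium-binding protein, had 302, 261, 153 and 7 reads in WT-k, WT-l, WT-m and WT-n and between 0 and 15 (median 4.5) in mating 1, a difference of 4.54 ± 0.80 (SE; limma, adjusted p = 0.0095). Hspa13, an Hsp70-like chaperone of the endoplasmic reticulum, had 160, 27, 49 and 9 reads in mating 2, and reads in mating 1 only in WT-c (14) and WT-h (3). Sqstm1, which encodes the autophagy receptor p62, had 195, 92, 54 and 22 reads in mating 2 and between 0 and 24 (median 3.5) in mating 1. Itm2b, Gsto1 and Cd24a, which encode a membrane protein, a glutathione transferase and a surface glycoprotein, differed by 4.05, 3.94 and 3.88 (limma, adjusted p = 0.032, 0.032 and 0.047). All of these had fewest reads of mating 2 in WT-n, and none passed without WT-j and WT-k (limma, adjusted p = 0.108 for Calb1 and 0.166 for Hspa13) or without WT-k alone. Of 25 alternatives tried for each gene, Calb1 passed in 22, Hspa13 in 21, Itm2b and Gsto1 in 15, Cd24a in 11 and Sqstm1 in 10. Gsto1 and Sqstm1 overlap other genes (Cfap43 and Mrnip), to which 19 and 26 reads of mating 2 were given against 344 and 363 for Gsto1 and Sqstm1.

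Kit, Laptm4b and Siah2 differed among transcripts present in every wild-type embryo. They lay beyond the 12 largest differences that the naming rule took, and were chosen after their values were seen. Kit, the receptor of stem cell factor that oocytes carry, had 319, 1090, 319 and 146 reads in mating 2 and between 35 and 233 in mating 1, or 6.00 ± 0.54 log2 RPM in mating 1 (SD, n = 10) and 7.84 ± 0.63 in mating 2 (SD, n = 4). The difference was 1.84 ± 0.38 (SE; limma, adjusted p = 0.039), and 1.60 without WT-j and WT-k (limma, adjusted p = 0.115). Laptm4b, a lysosomal membrane protein, and Siah2, a ubiquitin ligase, differed by 2.14 ± 0.45 and 1.65 ± 0.34 (SE; limma, adjusted p = 0.040 and 0.035), and by 1.56 and 1.18 without WT-j and WT-k (limma, adjusted p = 0.166 for both). The ranges of the litters did not overlap for these 3 genes. Kit passed in 12, Laptm4b in 11 and Siah2 in 13 of 26 alternatives, and none passed without WT-j, WT-k or WT-l.

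Smc4 and Zfp977 fell in mating 2. Smc4, a core subunit of condensin, had log2 RPM of 7.09, 8.45, 8.97 and 8.20 in WT-k, WT-l, WT-m and WT-n, and between 9.00 and 10.05 in mating 1. It fell by 1.40 with 14 embryos (SE 0.29; limma, adjusted p = 0.035), and the difference was -1.02 without WT-j and WT-k (limma, adjusted p = 0.166). Zfp977, a zinc finger gene of chromosome 7 whose relatives could share reads with it, had 0, 132, 85 and 152 reads in mating 2 and between 192 and 1894 in mating 1. It fell by 3.59 (SE 0.72; limma, adjusted p = 0.032), and the difference was -2.12 without WT-j and WT-k (limma, adjusted p = 0.108). WT-k set the lowest value of mating 2 for both genes, and WT-n at 7.49 log2 RPM for Zfp977 lay within the range of mating 1. Neither gene passed without WT-k alone or without WT-j alone, and of 26 alternatives Smc4 passed in 12 and Zfp977 in 15.

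Of the 13 mitochondrially encoded transcripts, mt-Co2, a subunit of cytochrome c oxidase, rose in mating 2 and the other 12 did not pass the test. It had 205, 483, 630 and 329 reads in WT-k, WT-l, WT-m and WT-n and between 22 and 217 (median 108.5) in mating 1. The level rose from 5.77 ± 0.78 log2 RPM (SD, n = 10) to 7.92 ± 0.57 (SD, n = 4), a difference of 2.15 ± 0.43 with 14 embryos (SE; limma, adjusted p = 0.032) and of 2.32 ± 0.43 without WT-j and WT-k (SE; limma, adjusted p = 0.020). The ranges just missed each other, with WT-i at 7.32 and WT-l at 7.34. The gene passed in 18 of 26 alternatives with 14 embryos and 17 of 23 with 12, and not without WT-c, WT-d, WT-e, WT-m or WT-n (14 embryos). mt-Co3, another subunit, stood at 1.83 and 2.25 higher in the 2 fits without passing (limma, adjusted p = 0.144 and 0.166). The 2 transcripts belong to 6 neighbouring ones that had at most 803 reads in any wild-type embryo, while the other 7 had up to 222531. Parts of the mitochondrial genome have near-identical copies in the nuclear genome of the mouse. Reads that map to both can be lost at a MAPQ limit of 20, so that the levels of the 6 are uncertain. Such a loss was not tested. mt-Co1 and mt-Cytb, the highest of the list, differed by -0.43 and -0.47 (limma, adjusted p = 0.358 and 0.393). The share of gene reads on mitochondrial transcripts was 16.8% ± 4.83 in mating 1 and 13.5% ± 3.50 in mating 2 (SD; two-sided exact permutation test, p = 0.264, n = 10 and 4).

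Gene classes were described by the number of members called and by their median difference. Of 44 lists, 43 had a gene tested, and 5 held a gene that passed, each a single gene: Ovgp1, mt-Co2, Hspa13, Sqstm1 and Zfp977. No member of the other 38 lists passed (limma, adjusted p under 0.05) in either fit. At an unadjusted p of 0.05, 677 genes (6.89%) were higher and 852 (8.67%) lower in mating 2 with 14 embryos, and 533 (5.43%) and 497 (5.06%) with 12. The counts and medians of lists are set beside these values and are not tests.

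**Figure D5:**
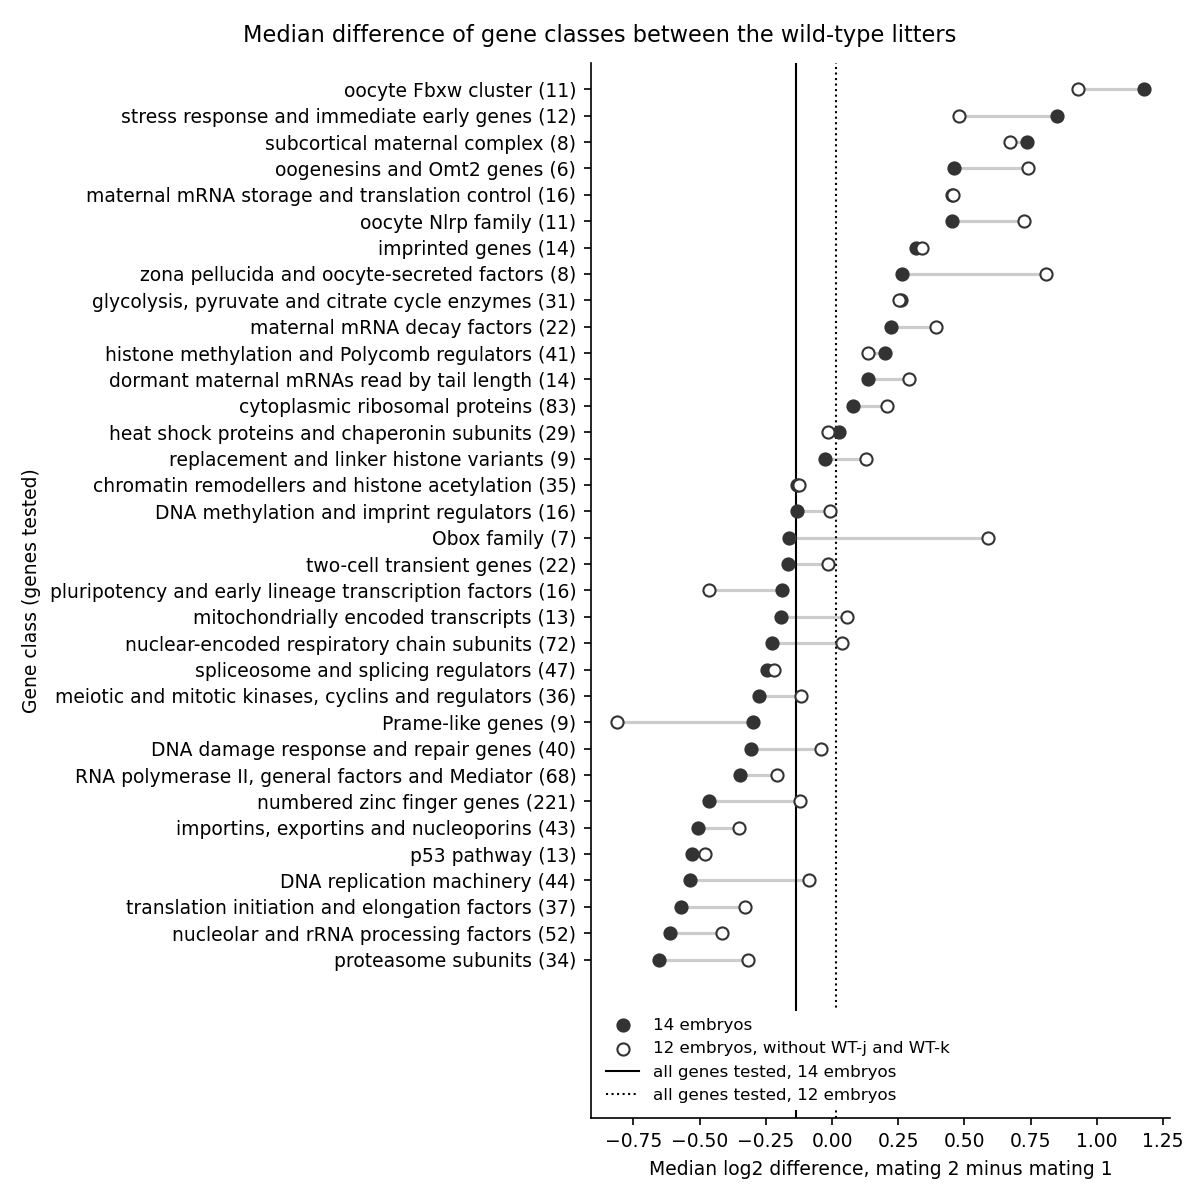
Median log2 difference (mating 2 minus mating 1, x axis) of the tested members of each gene class (y axis, number of genes in brackets), with 14 embryos (filled) and without WT-j and WT-k (open). The vertical lines are the medians of all genes tested, -0.13 and 0.02. The 8 maternal classes lie to the right of them and proteasome, nucleolar and translation factor classes to the left. Prame-like genes lie to the left, at -0.30 and -0.81, and the Obox family stands at -0.16 with 14 embryos and 0.59 with 12.

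Classes of maternal transcripts lay towards mating 2. All 8 maternal lists had a median above that of all genes tested, with 14 and with 12 embryos. The lists share members, such as Nlrp4f, Dcp1a and Dcp2, so that they are not 8 separate observations. The 9 tested Prame-like genes, a list of the oocyte and early embryo, lay the other way. Their medians were -0.30 and -0.81, below all genes tested in 48 of 51 fits. The 11 tested genes of the oocyte Fbxw cluster, F-box proteins expressed in oocytes, had a median difference of 1.18 with 14 embryos and 0.93 with 12. The 8 genes of the subcortical maternal complex, a protein assembly under the egg's membrane that the first divisions need, had medians of 0.73 and 0.67, and the 11 oocyte Nlrp genes 0.45 and 0.73. The medians of the zona pellucida and oocyte-secreted factors (8 genes) were 0.26 and 0.81, and those of the oogenesins and Omt2 genes (6 genes) 0.46 and 0.74. The other 3 lists, of decay factors, storage and translation control, and dormant transcripts, had medians of 0.22, 0.45 and 0.13 with 14 embryos and 0.39, 0.46 and 0.29 with 12. With 14 embryos, 4 of the 8 zona pellucida genes and 7 of the 14 dormant transcripts were higher in mating 2. At an unadjusted p of 0.05 with 14 embryos, the decay factors had 2 genes higher and 2 lower and the dormant transcripts 3 higher and 4 lower, while the other 6 lists had 1 to 3 higher and 0 lower. With 12 embryos the decay factors had 4 higher and 1 lower, and the other 7 lists 2 or 3 higher and 0 lower. For all 8 lists the median lay above that of all genes tested in the 51 fits run with 14 or 12 embryos and their alternatives, by 0.68 to 1.52 for the Fbxw cluster, 0.42 to 1.01 for the subcortical maternal complex and 0.09 to 1.34 for the zona pellucida list. The fits share most of their embryos and are not separate observations either.

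Single embryos of the 2 litters overlapped in these classes. Measured as the mean of its genes relative to all genes tested, the Fbxw cluster stood at 0.96, 1.38, 0.45 and 0.50 on the log2 scale in WT-k, WT-l, WT-m and WT-n, and between -1.03 and 0.81 (median -0.55) in mating 1. The subcortical maternal complex stood at 0.68, 0.70, 0.26 and 0.96 in mating 2 and between -1.39 (WT-j) and 0.50 (median -0.26) in mating 1. WT-a and WT-c lay highest in mating 1 for the Fbxw cluster. The Nlrp and zona pellucida lists were low in WT-k, at -0.66 and -0.78, and stood at 1.08 and 1.32 in WT-l. Among the leading members none passed the test. Bmp15, a growth factor of the oocyte, had log2 RPM of 9.56, 10.82, 9.65 and 8.91 in mating 2 and between 6.38 and 10.12 (median 8.50) in mating 1, a difference of 1.16 ± 0.45 (SE; limma, adjusted p = 0.23). Oosp1, an oocyte-secreted protein, and Nlrp4f, a member of the subcortical complex, differed by 1.08 and 1.13 (limma, adjusted p = 0.20 and 0.18), and Zbed3, another member, by 0.77 (limma, adjusted p = 0.51). Fbxw15 and Fbxw24 differed by 1.35 and 0.55, Nlrp9c and Nlrp14 by 0.60 and 0.45, and Omt2b and Omt2a by 0.64 and 0.28 (limma, adjusted p between 0.20 and 0.75). Without WT-j and WT-k, Omt2b and Omt2a differed by 1.24 and 0.91, and in WT-k, at 9.81 and 9.23 log2 RPM, both were lower than in the other 13 embryos.

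Classes of nucleolar, proteasome, translation, nuclear transport and zinc finger genes lay the other way. The 52 nucleolar and rRNA processing factors had a median difference of -0.61 with 14 embryos and -0.42 with 12, with 9 and 4 lower and 0 higher at an unadjusted p of 0.05. The 34 proteasome subunits had medians of -0.65 and -0.32 (7 and 5 lower, 0 higher), and the 37 translation initiation and elongation factors -0.57 and -0.33 (11 and 3 lower, 3 and 0 higher). The 43 importins, exportins and nucleoporins had medians of -0.51 and -0.35 (9 and 5 lower, 2 and 3 higher). For these 4 lists the median lay below that of all genes tested in all 51 fits. The 221 numbered zinc finger genes had medians of -0.47 and -0.12, with 37 and 19 lower and 9 and 9 higher at an unadjusted p of 0.05, and 1 fit of the 51 turned the sign. Relative to all genes tested, the nucleolar factors stood at -0.70, -0.62, -0.30 and 0.16 in WT-k, WT-l, WT-m and WT-n and between -0.34 and 0.51 (median 0.19) in mating 1, so that WT-m and WT-n lay within mating 1. The proteasome subunits stood at -0.91, -0.53, -0.26 and 0.06, against -0.38 to 0.76 (median 0.07) in mating 1, with WT-m and WT-n again inside that range. The members with the highest level, 1 for each list, were Npm1, Psma3, Eif5, Xpo1 and Zfp936, which encode a nucleolar chaperone, a proteasome core subunit, an initiation factor, an exportin and a zinc finger protein. They differed by -0.20, -0.58, -0.23, -0.95 and -1.46 (limma, adjusted p between 0.11 and 0.73), and none passed. The next members were not all lower: Nop58, Psma1 and Kpna2 differed by -0.60, -0.72 and -0.80, while the translation factor Eif4g2 differed by 0.56 and Zfp367 by 0.20 (limma, adjusted p between 0.24 and 0.76), and without WT-j and WT-k Nop58 differed by 0.02.

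Two-cell families and other classes took different positions. The 22 two-cell transient genes, which mark genome activation, had a median difference of -0.16 with 14 embryos and -0.02 with 12, close to the -0.13 and 0.02 of all genes tested. The 3 tested genes of the Tdpoz family, a zygotic family, had medians of -0.61 and -0.44, below all genes tested in all 51 fits. Sp110 and Klf17, the two-cell transient genes with the highest level, differed by -0.66 and -0.68 (limma, adjusted p = 0.40 and 0.42). The 83 cytoplasmic ribosomal protein genes had medians of 0.08 and 0.21, the 72 respiratory chain subunits encoded in the nucleus -0.225 and 0.04, and the 47 spliceosome genes -0.24 and -0.22. Of the spliceosome genes 10 and 5 were lower and 1 and 1 higher at an unadjusted p of 0.05, and the median lay below that of all genes tested in all 51 fits, while the leading member Snrpe differed by 0.19. The 13 genes of the p53 pathway had medians of -0.53 and -0.48, below all genes tested in all 51 fits, with 1 higher and 0 lower at an unadjusted p of 0.05. The 12 tested stress response and immediate early genes had medians of 0.85 and 0.48 (4 and 3 higher, 0 lower at an unadjusted p of 0.05), with WT-k at 1.96 relative to all genes tested and the other 3 mating 2 embryos between -0.04 and 0.58. The Obox and Zscan4 families, with 7 and 4 tested genes, had medians of -0.16 and -0.14 with 14 embryos and of 0.59 and 0.59 with 12.

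Transcripts of Dppa2 and Dppa4, the genes the study deletes, were read in all 14 embryos, which the labels call WT. Dppa2 had log2 RPM of 7.86, 7.84, 8.42 and 8.63 in WT-k, WT-l, WT-m and WT-n and between 7.67 and 9.40 (median 8.46) in mating 1, a difference of -0.38 ± 0.32 (SE; limma, adjusted p = 0.58). Dppa4 had 8.47, 6.63, 6.41 and 6.99 in mating 2 and between 6.33 and 7.58 (median 7.22) in mating 1, a difference of -0.01 ± 0.36 (SE; limma, adjusted p = 0.99) whose sign turned with several settings. WT-k had the highest Dppa4 level of the 14. Sex was not given by the labels. At least 3 reads of Y-linked genes were found in 4 of 10 embryos of mating 1 and 2 of 4 of mating 2, so that embryos with and without Y-linked reads stood in both litters.

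The 17 genes were then read in the litters of 2 other genotypes, which share no embryo with the wild-type litters and had other mothers. Whether a mating number stands for the same father or day across crosses is not given in the sources used here. Between the litters of heterozygotes sired by wild-type males (HET1, 7 and 8 embryos), 2731 of the same 9824 genes passed (27.8%), and 4 of the 17 passed. Zfp977 and Siah2 differed in the same direction, by -3.63 and 0.94 (limma, adjusted p = 0.00041 and 0.0094), and mt-Co2 and Gsto1 in the other, by -1.59 and -0.90 (limma, adjusted p = 0.021 and 0.042). Between the litters of null embryos (HOM, 3 and 7 embryos), 253 genes passed (2.58%), and of the 17 only Zfp977, at 2.301 (limma, adjusted p = 0.046). The 4 of 17 in HET1 did not exceed the share of all genes there, and are not read as a trait. Zfp977 passed between litters in all 3 genotypes. It was lower in mating 2 of the wild-type and HET1 litters and higher in mating 2 of the HOM litters. Its medians were 368 and 41.5 RPM in wild-type, 164 and 22.9 RPM in HET1 and 34.4 and 279 RPM in HOM litters. Ovgp1 had at most 9 reads in any embryo of the other crosses, and the reads of Dcn in mating 2 had no counterpart in any other litter of the series.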

How the data were processed

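Two-cell embryos were sequenced singly (Smart-seq2, Nextera XT). Per the study's methods, the authors trimmed reads, aligned them to GRCm38 with HISAT2, kept a MAPQ of at least 20 and counted mRNA without regard to strand in SeqMonk; the deposited values are log2 RPM for 35269 genes. A gene without reads holds the value of 0.9 read. Reads per gene and total reads were recovered from this step (99.9992% of values whole within 0.05 read). A count of 0 leaves room for up to 3 reads; limits of this kind hold for counting error alone, because the libraries carried no molecular identifiers and PCR copies count as reads. 41 symbols occur more than once.

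Genes whose mean deposited value over the 14 embryos reached 1 were kept. Values below the highest zero-read value of these embryos (0.50) were then set to it, and the genes entered limma (version 3.58.1, R version 4.3.3; lmFit, eBayes with trend; Benjamini-Hochberg adjustment at 0.05), with 14 embryos and without WT-j and WT-k. Differences lie on this floored scale and understate those of low genes. The fit was tested on simulated data. Values per embryo were compared by two-sided exact permutation (scipy 1.17.1). Positions were read from GENCODE M21 and the deposited table.

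Members and gene lists were chosen with earlier results of these data known. Genes named were the 12 largest differences in each direction that passed with 14 embryos and kept their direction with 12 (predicted genes and pseudogenes excepted), list members that passed, up to 2 genes per list with the highest level, and Dppa2 and Dppa4. Genes with reads in mating 2 alone were picked by their values. 1 of these is counted but not reported here by name. Alternatives covered the floor, filter, scaling, weights, covariates, all 44 embryos in a single model, limma voom on recovered reads, and leaving out embryos.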

Additional observations from a re-analysis of the deposited data

Results flagged for a closer look

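In 92 groups of 4 or 10 embryos, the values of a gene or measure were compared by Dixon's ratio of the gap to the range. In 13 of them an embryo stood apart from the rest of its litter. About 1 group in 20 meets this limit where values are normally distributed. Here many values sit at the floor and many genes were chosen for their differences, so that the 13 cannot be set against that share. In mating 1, WT-c had the highest log2 RPM of Ccdc152 (2.22, the other 9 embryos having no reads) and of Hspa13 (2.86), WT-g had the highest of Tmsb4x (2.66), and WT-a had the lowest of Zfp977 (6.15). WT-e had the lowest log2 RPM of Oosp1 (5.75), WT-h the lowest of Xpo1 (8.75), and the low-capture embryo WT-j the lowest of Zbed3 (6.26) and of Klf17 (6.34) and the highest of Nop58 (10.1). In mating 2, the low-capture embryo WT-k had the highest log2 RPM of Sqstm1 (7.52) and the lowest of Nop58 (6.83) and Kpna2 (6.37), and WT-l had the highest of Oosp1 (9.61). Of the genes that passed between the litters, Ccdc152, Hspa13, Tmsb4x and Sqstm1 thus had a litter with 1 high embryo, which in Sqstm1 lay in the litter with the higher level.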

How the results depend on the processing

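No paired analysis was possible, because the replicate letters only number the embryos and pair none of mating 1 with one of mating 2. With 14 embryos, 17 genes passed. The count was 24 with a floor at 3 reads, 15 after re-centring on the median and 13 with total reads as a covariate. It was 5 without a common floor, 110 when the mean had to reach 0, 1 when it had to reach 3 and 34 with no filter. It was 44 with array weights, 117 with the number of genes detected as a covariate (38 higher and 79 lower), 203 with all 44 embryos in a single model (106 and 97), 29 with voom on recovered reads (29 and 0), 6 without WT-j and WT-k, and between 6 and 60 with 1 embryo left out. The split between higher and lower therefore depended on the model. With 12 embryos, where 6 passed, the count was 12 with a floor at 3 reads, 26 and 0 when the mean had to reach 0 and 3 (limma; 776 genes at an unadjusted p of 0.05 for the latter), 42 with no filter, 11 with array weights, 10 with genes detected as a covariate, 14 with voom, and 6 to 11 with 1 more embryo left out. The causes were not tested. Of the called genes that did not enter through mating 2 alone, Ovgp1 missed the threshold with no filter and 14 embryos only (limma, adjusted p = 0.0655). Dcn, Selenop, Ccdc152 and Tmsb4x passed in every alternative that tested them, which their choice by the filter largely fixed.

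The difference in genes with at least 1 read, 223, ranged from -454 to 1222 with 1 embryo left out and was -59.8 without WT-j, -454 without WT-l and -280 without WT-m. The log2 difference in total reads was 0.16 without WT-j and WT-k and -0.31 to 0.29 with 1 embryo left out. Dppa4 (-0.01 with 14 embryos) turned to 0.0521 after re-centring and 0.0405 with genes detected as a covariate, and ranged from -0.454 to 0.233 with 1 embryo left out. With 1 embryo left out, the range was -0.354 to 0.0438 for Dppa2 with 12 embryos, -0.0797 to 0.920 for Omt2a with 14, -0.507 to 0.0824 for Eif5 with 14, -0.714 to 0.0659 for Xpo1, -0.727 to 0.0564 for Sp110, -0.0421 to 0.0867 for Nop58 and -0.0299 to 0.404 for Zfp367 with 12. Nop58 stood at 0.0203 without WT-j and WT-k, and at -0.0206 with 12 embryos and genes detected as a covariate. Depth limits what can be said of genes under 3 reads, and 4 embryos against 10 from 1 litter each limit the comparison to these litters.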
